A study of Homo sapiens with 12 samples.

Results

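The genes described here copy the genome before a cell divides and supply the deoxynucleotides for that copying. They are 54 named genes, listed by their function with earlier results of these data known, among 18404 genes with a probe set of their own, and 53 of the 54 were among the 13199 genes tested. Each was read from the probe set that the array's annotation ties to that symbol alone, and CLSPN, which had more than 1 such probe set, from the one with the highest mean. RNA of HepG2C3A cells, an established human hepatoma line that makes many hepatocyte proteins, was hybridised to Affymetrix Human Gene 1.0 ST arrays. Culture lasted 96 h, either in a Petri dish or in a microsystem whose design the labels do not describe. In each culture the cells were left untreated or exposed for 72 h to acetaminophen, an analgesic. Its dose was not stated in the labels used here. Each combination of culture and treatment was measured on 3 arrays, which gives 4 groups. All groups share the 1 cell line. The labels do not state that replicates are independent cultures, and p-values therefore cover only how far these arrays differ from each other, which may be technical.

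Replication starts in G1 phase, when the origin recognition complex, with CDC6 and CDT1, loads the MCM helicase onto DNA. In S phase the kinase CDC7 with DBF4, together with MCM10, CDC45 and the GINS complex, turns the loaded helicase into a moving fork, where the polymerases alpha, delta and epsilon work with the sliding clamp PCNA and its loader RFC. Geminin (GMNN) and the CRL4 ubiquitin ligase with its receptor DTL keep CDT1 from licensing an origin again. Transcription of many of these genes is known to follow the E2F factors, and adult hepatocytes divide rarely, whereas tumour lines such as this one cycle.

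Promoter windows are shown for 6 genes, because E2F is the factor best known to bind near the start sites of many such genes. Its part in the differences described below was not tested. The windows hold the 250 bases before a RefSeq start site on GRCh38.p14, each 5′ to 3′ on the gene's own strand. Capitals mark matches, on either strand, to 4 forms of the E2F consensus and to the CCAAT box. The first form is TTTCCCG. The second reads TTTGGCG. The third form is TTTCGCG. The last one searched was TTTGCCG. PCNA and GMNN each had 2 listed starts, and for them the window shown is the first one that held an E2F-type match. The other window of each held none. CDC6 and CDT1 load the helicase, POLA2 is a polymerase alpha subunit, PCNA is the clamp and DTL is the receptor for CDT1 destruction. GMNN is shown because its window holds the same letters although its level did not pass the test in either treatment comparison. The windows are chr17:40287629-40287878 (plus strand) for CDC6, chr16:88803539-88803788 (plus) for CDT1, chr11:65261712-65261961 (plus) for POLA2, chr20:5126623-5126872 (minus) for PCNA, chr1:212035498-212035747 (plus) for DTL and chr6:24775163-24775412 (plus) for GMNN.
CDC6: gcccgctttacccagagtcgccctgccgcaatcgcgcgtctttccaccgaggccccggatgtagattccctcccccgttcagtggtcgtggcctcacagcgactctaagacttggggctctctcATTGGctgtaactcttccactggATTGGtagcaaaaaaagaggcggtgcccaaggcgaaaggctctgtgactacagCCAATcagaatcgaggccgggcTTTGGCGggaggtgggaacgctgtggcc
CDT1: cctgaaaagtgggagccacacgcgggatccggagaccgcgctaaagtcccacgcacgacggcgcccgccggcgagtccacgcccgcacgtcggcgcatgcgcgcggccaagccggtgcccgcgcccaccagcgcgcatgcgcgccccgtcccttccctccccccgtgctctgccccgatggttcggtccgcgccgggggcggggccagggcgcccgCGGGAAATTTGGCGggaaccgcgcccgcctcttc
POLA2: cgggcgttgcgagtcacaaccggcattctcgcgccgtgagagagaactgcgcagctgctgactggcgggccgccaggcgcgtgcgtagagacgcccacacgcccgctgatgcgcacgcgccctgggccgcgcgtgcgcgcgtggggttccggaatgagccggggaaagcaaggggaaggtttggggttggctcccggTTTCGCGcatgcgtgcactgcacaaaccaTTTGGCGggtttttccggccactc
PCNA: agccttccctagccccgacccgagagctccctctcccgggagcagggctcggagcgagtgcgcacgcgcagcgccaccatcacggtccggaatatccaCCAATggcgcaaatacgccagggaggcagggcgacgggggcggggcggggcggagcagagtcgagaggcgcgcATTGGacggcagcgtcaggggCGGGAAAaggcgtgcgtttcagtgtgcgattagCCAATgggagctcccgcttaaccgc
DTL: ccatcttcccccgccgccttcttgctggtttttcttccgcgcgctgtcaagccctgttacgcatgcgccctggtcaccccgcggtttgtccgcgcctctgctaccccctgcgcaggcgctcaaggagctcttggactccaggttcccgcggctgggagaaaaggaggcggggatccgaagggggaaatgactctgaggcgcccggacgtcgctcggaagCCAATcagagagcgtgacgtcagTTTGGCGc
GMNN: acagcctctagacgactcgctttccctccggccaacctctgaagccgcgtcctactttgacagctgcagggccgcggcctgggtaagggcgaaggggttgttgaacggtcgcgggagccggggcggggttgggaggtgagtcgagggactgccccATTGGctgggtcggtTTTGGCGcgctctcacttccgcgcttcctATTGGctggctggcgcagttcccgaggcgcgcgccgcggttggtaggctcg

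In the windows shown, the nearest E2F-type match began 28 bases before the start in CDC6, 27 in CDT1, 24 in POLA2, 58 in PCNA, 8 in DTL and 80 in GMNN. In CDT1 the matches of opposite strands, 34 and 27 bases before the start, adjoin each other. Of the 54 genes, 48 had a window in RefSeq, without GINS4, MCM4, MCM5, POLD3, RPA2 and RPA3. An E2F-type match lay in 22 of their 63 windows (34.9%), against 7.33% of 35116 windows of all genes, and a CCAAT box in 34 of the 63, against 32.0% of all windows. No E2F-type match overlapped a CCAAT box in these windows, and 3 pairs of E2F-type matches overlapped each other. Of the 21 members with an E2F-type match, 12 rose with acetaminophen in Petri dishes, and so did 16 of the 27 without one. For the CCAAT box the counts were 17 of 29 with it and 11 of 19 without. In the microsystem 7 of the 21 with an E2F-type match rose and 5 of the 27 without. For the CCAAT box 10 of 29 and 2 of 19 rose there. Between untreated cultures 12 of 21 and 11 of 27 were higher in the microsystem for E2F. The same counts for CCAAT were 15 of 29 and 8 of 19. None of these differences in counts was tested. A match is a run of letters and not a shown binding site, and the motifs were settled after some of these sequences had been read.

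Array medians of the deposited log2 intensities lay between 5.556 and 5.629, and arrays of 1 group correlated with r between 0.991 and 0.995. The 8 hepatocyte markers with a probe set of their own, among them albumin (ALB), alpha-fetoprotein (AFP) and transferrin (TF), averaged 11.33 to 11.68 on each array. FGB was far dimmer than this average, with group means from 6.34 to 6.86. Of 11 markers of other cell types, 5 passed the filter on dim values, and the list averaged 5.40 to 5.44 on Petri control, 5.31 to 5.39 on Petri treated, 5.30 to 5.31 on microsystem control and 5.23 to 5.30 on microsystem treated arrays. LYZ was as bright as several hepatocyte markers, with group means from 12.09 to 12.51, and those of CD68 ran from 8.16 to 9.41. The leukocyte gene PTPRC, the endothelial genes PECAM1, VWF and CDH5, the stromal gene DCN and CFTR were among the 6 removed as dim. Both microsystem arrays numbered 3 stood apart on the third principal component (6.77% of the variance), at -17.2 and -13.9. For the replication genes, microsystem control 1 stood apart as well: it was the lowest of its group for 50 of 53 genes, while microsystem control 3 was the highest for 45. The same counts were not made over all tested genes. Petri treated 3 carries an asterisk in its description that the labels do not explain.

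Acetaminophen was followed by higher levels of replication genes in both cultures, and the larger number passed the test in Petri dishes. There 32 of the 53 tested genes rose and 0 fell (adjusted p under 0.05), against 8.38% of all tested genes that rose and 1.98% that fell. All 53 differences were above 0, from 0.03 to 1.33 on the log2 scale with a median of 0.60, while the median over all tested genes was 0.01. In the microsystem 14 rose and 0 fell, against 6.39% and 2.67% of all tested genes, with 48 of 53 differences above 0 and a median of 0.29 (all tested genes, -0.01). All 14 genes that rose in the microsystem had also risen in Petri dishes (100% of the one list and 43.8% of the other), and over all tested genes 57.3% and 43.7% were shared, or 3.66% of the genes tested. The 14 were ORC6, CDC6, CDT1, MCM10, CDC45, GINS4, POLA2, POLD3, POLE, PCNA, TK1, TIMELESS, CLSPN and DTL. Each step of replication was represented, but clamp and lagging strand by PCNA alone (1 of 11) and nucleotide supply by TK1 alone (1 of 4). Treated and control arrays did not overlap for 45 genes in Petri dishes, with treated arrays higher, and for 21 in the microsystem, against 21.0% and 15.2% of all tested genes. In RNA of whole cultures, more cells in S phase and more RNA per cell cannot be told apart. Of 12 proliferation markers, 7 rose in Petri dishes (58.3%) and 5 in the microsystem (41.7%), and their part in these counts was not tested.

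The count in the microsystem moved in both directions with the arrays and the fit. It was 21 without microsystem control 3 and 26 with a replicate block within each culture, and it was 9 without microsystem control 1, microsystem control 2 or microsystem treated 1, 6 without microsystem treated 2 and 8 without microsystem treated 3, and the median difference was 0.14 without microsystem control 1 and 0.45 without microsystem control 3. With only the 6 microsystem arrays in the fit 7 genes passed, while CDC6, CDT1, MCM10, POLD3, PCNA, CLSPN and DTL had adjusted p from 0.074 to 0.118, and without both arrays numbered 3 the count was 13. In Petri dishes the count stayed between 23 and 39 with any 1 array left out, and was 43 with the replicate block within each culture. Over all tested genes 843 rose in the microsystem, against 666 without microsystem control 3, 893 without microsystem control 1 and 388 without microsystem treated 2. That number was 375 with only the 6 microsystem arrays and 1383 with the block within each culture. In Petri dishes 1106 of all tested genes rose, against 604 to 1226 with any 1 array left out and 1648 with that block.

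**Figure D1:**
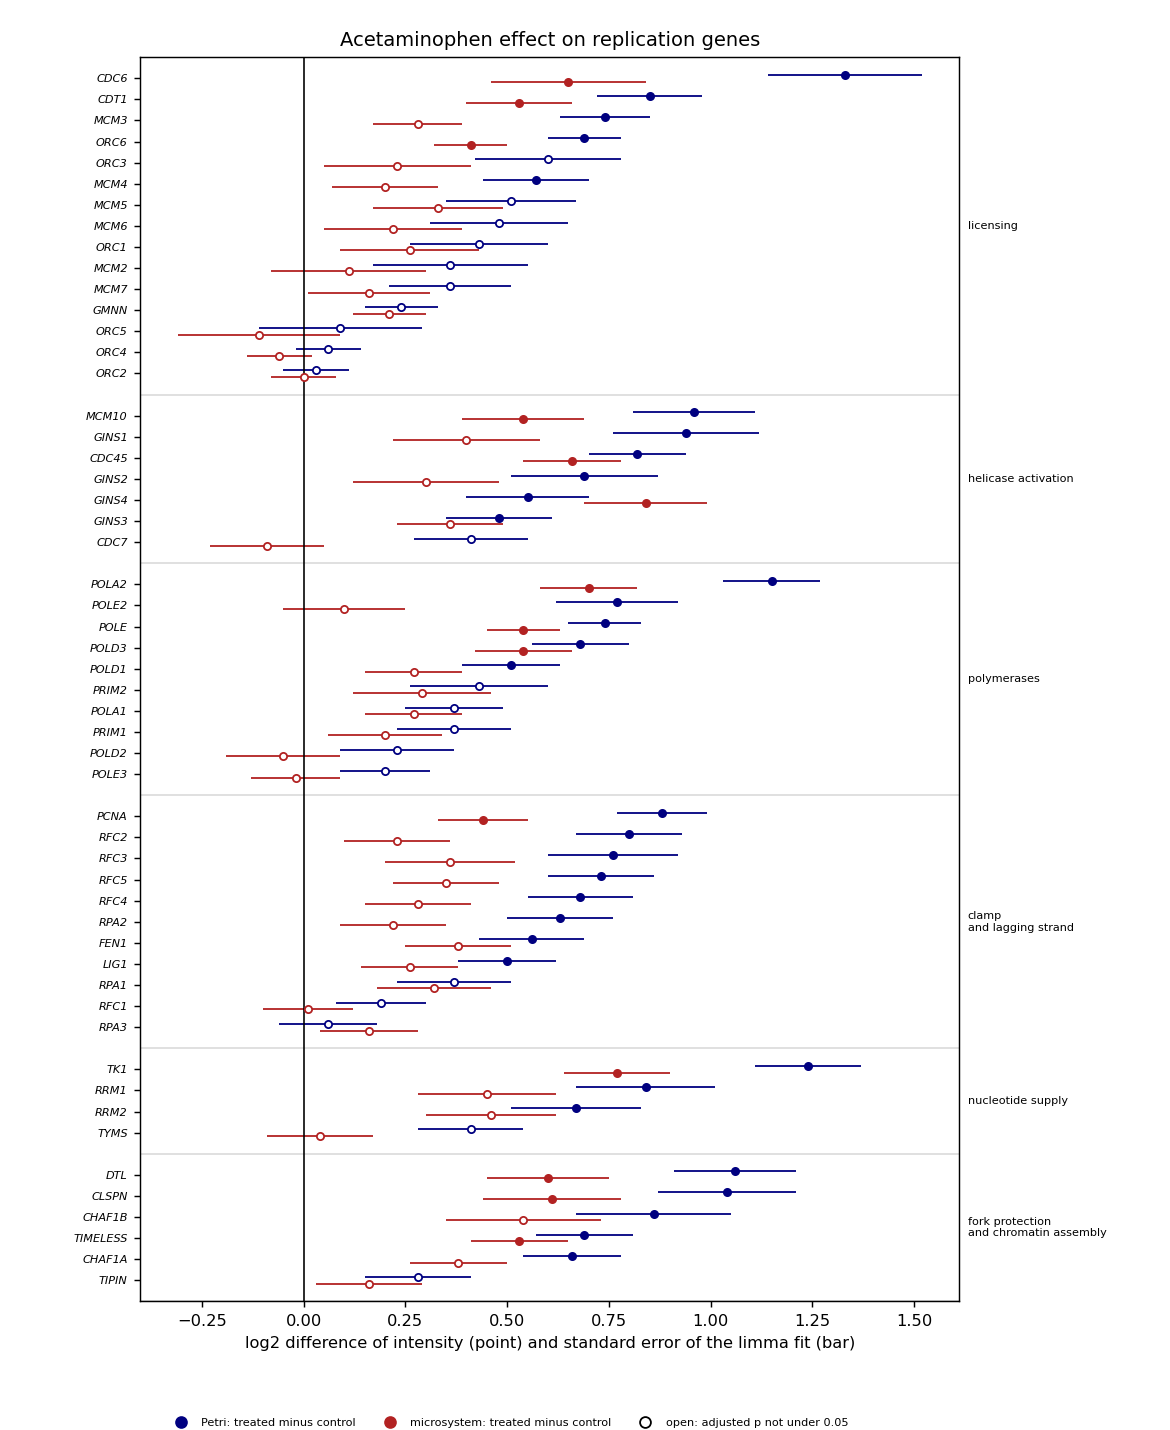
Difference between treated and control arrays in log2 intensity for each of the 53 tested genes (point, with the standard error of the limma fit as a bar), in Petri dishes and in the microsystem, ordered by step of replication. Filled points passed at adjusted p under 0.05: 32 genes in Petri dishes and 14 in the microsystem, and all 53 Petri points lie to the right of 0.

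The microsystem by itself was also accompanied by a change in these genes, but not a uniform one. Between untreated cultures 26 of 53 genes were higher and 2 were lower in the microsystem (adjusted p under 0.05), against 26.5% and 18.3% of all tested genes, with a median difference of 0.35 (all tested genes, 0.01). Between treated cultures 16 were higher and 5 lower, against 22.6% and 18.9% of all tested genes, and the median was 0.06 (all tested genes, -0.00). Differences between untreated cultures ranged from -0.76 for CDT1 to 1.63 for CDC6. The Petri control group had the lowest mean of the 4 groups for 45 of the 53 genes, and the microsystem treated group the highest for 28. Neither count was made over all tested genes. Without any 1 array, between 24 and 35 genes passed in controls and between 14 and 25 in treated cells. Over all tested genes 2870 to 3575 were then higher and 1918 to 2454 lower in controls. In treated cells 2448 to 3085 were higher and 1956 to 2568 lower. Without microsystem control 1 the median difference between untreated cultures was 0.51, and without microsystem control 3 it was 0.24. CD68, a macrophage marker that many cells express at low levels, was lower in untreated microsystem cells (by 1.05 ± 0.09), and LYZ was 0.33 ± 0.09 higher, and their part in the culture comparison was not tested.

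**Figure D2:**
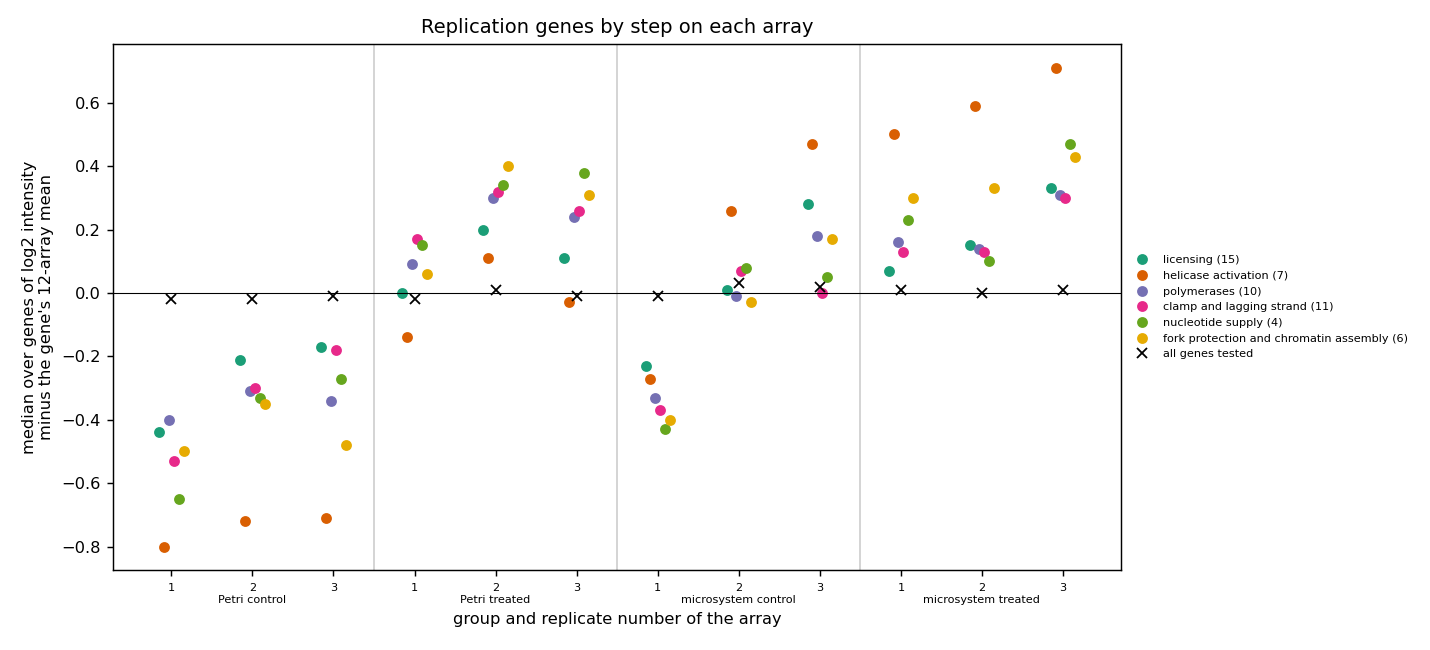
Median over the genes of each step (number of genes in brackets) of the log2 intensity minus each gene's mean over the 12 arrays, for every array, with all 13199 tested genes as crosses. The Petri control arrays and microsystem control 1 lie below 0 for every step, and the helicase activation genes lie between -0.80 and -0.71 on Petri control arrays and between -0.27 and 0.47 on microsystem control arrays.

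Licensing was the step with the largest share of genes that did not pass in Petri dishes. With acetaminophen 5 of its 15 genes rose in Petri dishes and 3 in the microsystem, and in the microsystem 5 were higher and 1 was lower between untreated cultures. CDC6, the ATPase that brings the helicase to the origin complex, read 6.72, 7.23 and 7.07 in Petri controls, 8.09, 8.53 and 8.38 in treated Petri cells, 8.18, 8.68 and 9.04 in microsystem controls and 9.21, 9.25 and 9.40 in treated microsystem cells. Its 4 groups did not overlap in any of the pairs compared, and means ran upward from Petri controls through treated Petri cells and microsystem controls to treated microsystem cells, with the middle pair overlapping. It rose 2.51-fold in Petri dishes (1.33 ± 0.19 SE on the log2 scale, adjusted p = 0.000745) and by 0.65 ± 0.19 in the microsystem (adjusted p = 0.0458), and was 1.63 ± 0.19 higher in untreated microsystem cells (adjusted p = 1.63e-05). CDT1, the partner of CDC6 in loading, read 8.52, 8.61 and 8.65 in Petri controls, 9.41, 9.38 and 9.53 in treated Petri cells, 7.52, 8.07 and 7.92 in microsystem controls and 8.56, 8.30 and 8.24 in treated microsystem cells. Both genes rose with treatment, yet CDT1 went the other way between cultures: it rose by 0.85 ± 0.13 in Petri dishes and 0.53 ± 0.13 in the microsystem (adjusted p = 0.00117 and 0.022), and was lower by 0.76 ± 0.13 in untreated and 1.08 ± 0.13 in treated microsystem cells (adjusted p = 0.00033 and 2.21e-05). All 6 microsystem arrays held less CDT1 than all 3 treated Petri arrays, and treated microsystem cells overlapped Petri controls.

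GMNN, the inhibitor of CDT1, read 8.48, 8.40 and 8.41 in Petri controls, 8.58, 8.73 and 8.68 in treated Petri cells, 8.36, 8.48 and 8.72 in microsystem controls and 8.65, 8.78 and 8.75 in treated microsystem cells. Its differences were 0.24 ± 0.09 in Petri dishes and 0.21 ± 0.09 in the microsystem (adjusted p = 0.126 and 0.176), although the treated Petri arrays all lay above the Petri controls. Of the 6 genes of the origin recognition complex, ORC6 alone passed in either treatment comparison. ORC6 read 7.26, 7.61 and 7.32 in Petri controls, 8.07, 8.15 and 8.04 in treated Petri cells, 7.86, 8.00 and 8.06 in microsystem controls and 8.36, 8.36 and 8.43 in treated microsystem cells, and the groups compared did not overlap. It rose by 0.69 ± 0.09 in Petri dishes and 0.41 ± 0.09 in the microsystem (adjusted p = 0.000622 and 0.0183) and was 0.58 ± 0.09 higher in untreated microsystem cells (adjusted p = 0.000264). ORC1, which is the cell cycle-regulated subunit, differed by 0.43 ± 0.17 in Petri dishes (adjusted p = 0.122, and 0.0239 with the block) and ORC3 by 0.60 ± 0.18 (adjusted p = 0.0512, and 0.00147 with the block). ORC2, ORC4 and ORC5 differed by 0.09 at most in Petri dishes.

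The MCM2 to MCM7 genes encode the 6 subunits of 1 ring, and 2 of them passed in Petri dishes. MCM3 read 8.71, 8.86 and 8.85 in Petri controls, 9.43, 9.60 and 9.61 in treated Petri cells, 9.29, 9.66 and 9.72 in microsystem controls and 9.82, 9.84 and 9.86 in treated microsystem cells, with treated above control arrays in both cultures. It rose by 0.74 ± 0.11 in Petri dishes (adjusted p = 0.0008) and MCM4 by 0.57 ± 0.13 (adjusted p = 0.0138, and 0.0646 and 0.0534 without Petri treated 2 or Petri treated 3). MCM2 read 8.29, 8.61 and 8.76 in Petri controls, 8.72, 9.13 and 8.90 in treated Petri cells, 8.28, 8.57 and 9.02 in microsystem controls and 8.68, 8.50 and 9.03 in treated microsystem cells, and its treated and control arrays overlapped in both cultures. Its difference in Petri dishes was 0.36 ± 0.19 (adjusted p = 0.245), and those of MCM5, MCM6 and MCM7 were 0.51 ± 0.16, 0.48 ± 0.17 and 0.36 ± 0.15 (adjusted p = 0.0608, 0.0938 and 0.143). With the block these 4 passed at adjusted p of 0.0436, 0.0134, 0.0148 and 0.0454. In the microsystem no MCM2 to MCM7 gene passed, with differences from 0.11 (MCM2) to 0.33 (MCM5). Some ring genes differed between cultures: MCM6, MCM3 and MCM4 were 0.95 ± 0.17, 0.75 ± 0.11 and 0.53 ± 0.13 higher in untreated microsystem cells (adjusted p = 0.000552, 7.89e-05 and 0.00474), whereas MCM2 and MCM7 differed by 0.07 ± 0.19 and 0.07 ± 0.15 (adjusted p = 0.796 and 0.746).

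**Figure D3:**
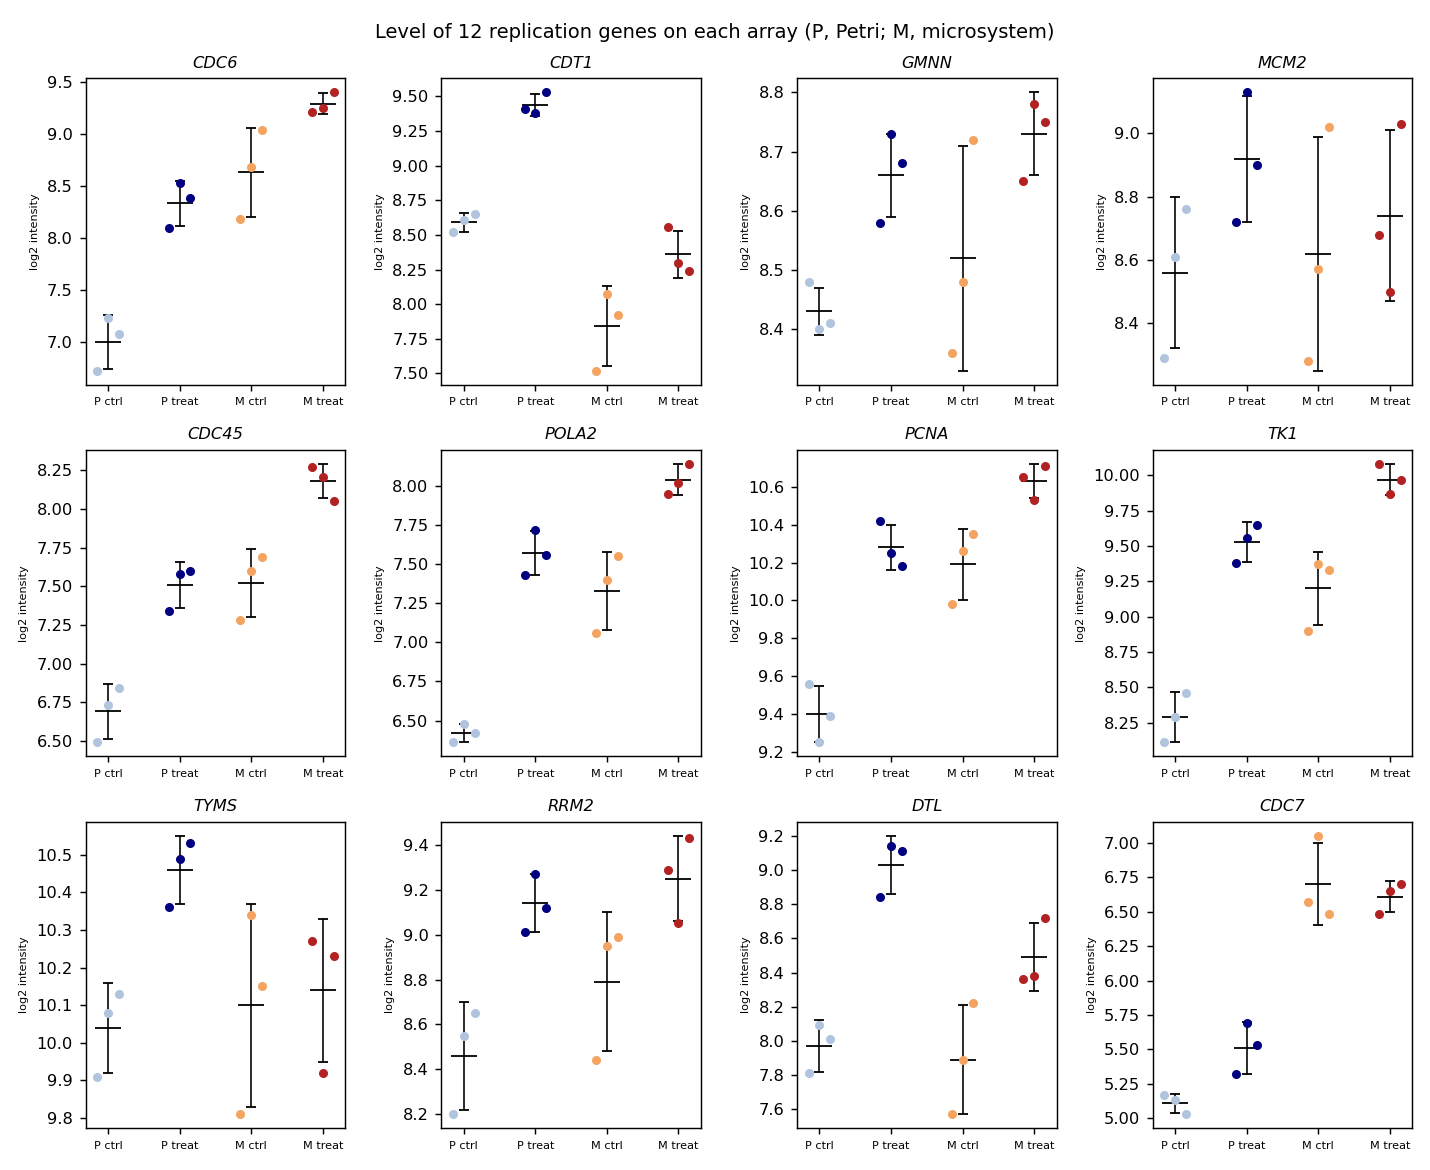
Log2 intensity of 12 genes on each of the 12 arrays (coloured points, 3 per group in the order of their replicate numbers, with the group mean and SD in black); each panel has its own vertical scale, which does not start at 0. CDC6 and CDC7 lie higher in the microsystem (M) than in Petri dishes (P) within each treatment and CDT1 lies lower, while POLA2, TK1 and PCNA lie higher in treated than in control cells of both cultures.

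Helicase activation was the step that differed most between cultures. Its 7 tested genes were all higher in untreated microsystem cells (100%, against 26.5% of all tested genes) and 5 in treated ones (71.4%, against 22.6%). With acetaminophen 6 rose in Petri dishes (85.7%, against 8.38%) and 3 in the microsystem (42.9%, against 6.39%). DBF4, the activating subunit of CDC7, was removed as dim, at 3.11 to 3.59 on the 12 arrays. CDC7 itself, the kinase that phosphorylates the loaded ring, read 5.17, 5.13 and 5.03 in Petri controls, 5.32, 5.69 and 5.53 in treated Petri cells, 6.57, 7.05 and 6.48 in microsystem controls and 6.48, 6.65 and 6.70 in treated microsystem cells. The 6 microsystem arrays all lay above the 6 Petri arrays. The Petri control values were dim, not far above the filter bound of those arrays, their 40th percentile (4.88 to 4.90). CDC7 was 3.01-fold higher in untreated microsystem cells (1.59 ± 0.14, adjusted p = 1.55e-06) and 1.10 ± 0.14 higher in treated ones (adjusted p = 3.36e-05), while its treatment differences were 0.41 ± 0.14 in Petri dishes (adjusted p = 0.077, and 0.0397 with the block) and -0.09 ± 0.14 in the microsystem (adjusted p = 0.72). CDC45, which joins the ring and GINS in the moving helicase, read 6.49, 6.73 and 6.84 in Petri controls, 7.34, 7.58 and 7.60 in treated Petri cells, 7.28, 7.60 and 7.69 in microsystem controls and 8.27, 8.21 and 8.05 in treated microsystem cells. It rose by 0.82 ± 0.12 in Petri dishes and 0.66 ± 0.12 in the microsystem (adjusted p = 0.00124 and 0.00678) and was 0.84 ± 0.12 higher in untreated microsystem cells (adjusted p = 0.000124). Untreated microsystem cells overlapped treated Petri cells for CDC45.

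MCM10, which helps to start the activated helicase, read 6.66, 7.04 and 6.79 in Petri controls, 7.69, 7.86 and 7.80 in treated Petri cells, 7.20, 7.65 and 7.95 in microsystem controls and 8.07, 8.18 and 8.17 in treated microsystem cells. Treated arrays were above controls in both cultures, and MCM10 rose by 0.96 ± 0.15 in Petri dishes and 0.54 ± 0.15 in the microsystem (adjusted p = 0.00173 and 0.0443). The genes of the 4 GINS subunits moved unequally. GINS4 read 6.08, 5.94 and 5.98 in Petri controls, 6.47, 6.80 and 6.39 in treated Petri cells, 6.24, 6.59 and 6.99 in microsystem controls and 7.54, 7.38 and 7.41 in treated microsystem cells. GINS3 read 5.92, 5.86 and 5.85 in Petri controls, 6.24, 6.51 and 6.32 in treated Petri cells, 6.50, 6.92 and 7.07 in microsystem controls and 7.11, 7.10 and 7.36 in treated microsystem cells. For both genes treated arrays lay above controls in each culture, and microsystem above Petri arrays in each treatment. GINS4 was 1 of 2 tested members, with RPA3, whose treatment difference was larger in the microsystem (0.84 ± 0.15, adjusted p = 0.00602) than in Petri dishes (0.55 ± 0.15, adjusted p = 0.0366), and the difference of those effects, 0.28 ± 0.22, did not pass (adjusted p = 0.829). GINS3 rose by 0.48 ± 0.13 in Petri dishes (adjusted p = 0.0319) and was 0.95 ± 0.13 higher in untreated microsystem cells (adjusted p = 6.07e-05). GINS1 rose by 0.94 ± 0.18 and GINS2 by 0.69 ± 0.18 in Petri dishes (adjusted p = 0.00498 and 0.0285), and they were 1.07 ± 0.18 and 0.64 ± 0.18 higher in untreated microsystem cells (adjusted p = 0.000334 and 0.011). The Petri calls of GINS2, GINS3 and GINS4 were lost without some single Petri array, at adjusted p up to 0.105, 0.132 and 0.155 without Petri treated 2, and also without any of the 3 Petri controls or without Petri treated 3. GINS4 lost its call without Petri treated 1 too (adjusted p = 0.0576), and GINS2 its culture call without microsystem control 2 (adjusted p = 0.0513).

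Among the polymerase genes, POLA2 gave the largest rise in both cultures. With acetaminophen 5 of 10 rose in Petri dishes and 3 in the microsystem, and between untreated cultures 6 were higher and 1 lower in the microsystem. POLA2, the accessory subunit of polymerase alpha, which lays down primers, read 6.36, 6.48 and 6.42 in Petri controls, 7.43, 7.72 and 7.56 in treated Petri cells, 7.06, 7.40 and 7.55 in microsystem controls and 7.95, 8.02 and 8.14 in treated microsystem cells. None of its compared groups overlapped, and POLA2 rose 2.22-fold in Petri dishes (1.15 ± 0.12, adjusted p = 9.08e-05) and 1.63-fold in the microsystem (0.70 ± 0.12, adjusted p = 0.00329). It was also 0.92 ± 0.12 higher in untreated microsystem cells (adjusted p = 3.67e-05). Its catalytic partner POLA1 differed by 0.37 ± 0.12 in Petri dishes (adjusted p = 0.0647, and 0.0151 with the block) and 0.27 ± 0.12 in the microsystem (adjusted p = 0.169). The primase genes PRIM1 and PRIM2 differed by 0.37 ± 0.14 and 0.43 ± 0.17 in Petri dishes (adjusted p = 0.117 and 0.118), of which PRIM2 passed with the block (adjusted p = 0.00452). PRIM1 was lower in the microsystem, by 0.37 ± 0.14 in untreated and 0.53 ± 0.14 in treated cells (adjusted p = 0.0491 and 0.00828), and of the 12 arrays left out in turn the first of these calls was kept only without microsystem control 3. The adjusted p without any other array ran from 0.0547 to 0.194 (without microsystem control 2 and 1).

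POLE, the catalytic subunit of the leading-strand polymerase epsilon, read 7.64, 7.62 and 7.51 in Petri controls, 8.35, 8.37 and 8.26 in treated Petri cells, 7.66, 7.80 and 7.86 in microsystem controls and 8.29, 8.45 and 8.21 in treated microsystem cells. It rose by 0.74 ± 0.09 in Petri dishes and 0.54 ± 0.09 in the microsystem (adjusted p = 0.000199 and 0.00261), while its difference between untreated cultures was 0.19 ± 0.09 (adjusted p = 0.0953). Treated POLE arrays were separate from controls in both cultures, and the treated groups overlapped each other. Its partner POLE2 rose in Petri dishes by 0.77 ± 0.15 (adjusted p = 0.00646) and differed by 0.10 ± 0.15 in the microsystem (adjusted p = 0.725). POLE3, a histone-fold subunit, did not pass in either culture (0.20 ± 0.11 and -0.02 ± 0.11). For the lagging-strand polymerase delta, POLD3 rose in both cultures (0.68 ± 0.12 and 0.54 ± 0.12, adjusted p = 0.00254 and 0.0126) and the catalytic subunit gene POLD1 in Petri dishes (0.51 ± 0.12, adjusted p = 0.0166, and 0.0613, 0.0812 and 0.0795 without Petri control 1, Petri treated 2 or Petri treated 3). POLD2, another subunit of the same enzyme, read 8.25, 8.50 and 8.59 in Petri controls, 8.37, 8.85 and 8.80 in treated Petri cells, 8.77, 9.07 and 9.18 in microsystem controls and 8.94, 8.88 and 9.05 in treated microsystem cells. Its treated and control arrays overlapped in both cultures (0.23 ± 0.14 and -0.05 ± 0.14, adjusted p = 0.32 and 0.851), but its microsystem controls lay above its Petri controls (0.56 ± 0.14, adjusted p = 0.00497).

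Of the 11 clamp and lagging-strand genes, 8 rose in Petri dishes (72.7%, against 8.38% of all tested genes) and 1 rose in the microsystem (9.09%, near the 6.39% of all tested genes). All 11 differences in the microsystem were above 0, and 7 had an unadjusted p under 0.05. PCNA, the clamp that tethers polymerases to DNA, read 9.56, 9.25 and 9.39 in Petri controls, 10.42, 10.25 and 10.18 in treated Petri cells, 9.98, 10.26 and 10.35 in microsystem controls and 10.65, 10.53 and 10.71 in treated microsystem cells. Every pair of groups compared was separate, with treated above control and microsystem above Petri arrays. PCNA rose by 0.88 ± 0.11 in Petri dishes and 0.44 ± 0.11 in the microsystem (adjusted p = 0.000358 and 0.0277) and was 0.80 ± 0.11 higher in untreated microsystem cells (adjusted p = 7.62e-05). The clamp loader has 5 subunits, and the genes of the 4 small ones all passed in Petri dishes: RFC2, RFC3, RFC4 and RFC5 rose by 0.80, 0.76, 0.68 and 0.73 (adjusted p = 0.00163, 0.0078, 0.00477 and 0.00442). The large subunit gene RFC1 differed by 0.19 ± 0.11 (adjusted p = 0.313). RFC2 read 7.47, 7.75 and 7.79 in Petri controls, 8.36, 8.61 and 8.45 in treated Petri cells, 7.93, 8.26 and 8.36 in microsystem controls and 8.31, 8.34 and 8.58 in treated microsystem cells. In the microsystem its treated and control arrays overlapped, and none of the 5 loader genes passed there, with differences from 0.01 (RFC1) to 0.36 (RFC3).

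FEN1, the nuclease that trims flaps between lagging-strand pieces, read 7.38, 7.26 and 7.20 in Petri controls, 7.78, 7.89 and 7.84 in treated Petri cells, 7.88, 8.03 and 8.45 in microsystem controls and 8.40, 8.39 and 8.71 in treated microsystem cells. FEN1 rose by 0.56 ± 0.13 in Petri dishes (adjusted p = 0.0169) and was 0.84 ± 0.13 higher in untreated microsystem cells (adjusted p = 0.000191), with treated and control arrays separate in Petri dishes and overlapping in the microsystem. The ligase gene LIG1 rose by 0.50 ± 0.12 in Petri dishes (adjusted p = 0.0147). Both Petri calls were lost without Petri control 2, Petri treated 2 or Petri treated 3, at adjusted p from 0.0566 to 0.0698, and that of FEN1 also without Petri control 3 (0.0658). LIG1 differed between cultures by -0.11 ± 0.12 in controls (adjusted p = 0.463) and was lower by 0.36 ± 0.12 in treated microsystem cells (adjusted p = 0.0243). RPA coats the single strands at the fork, and of its 3 genes RPA2 alone passed, in Petri dishes (0.63 ± 0.13, adjusted p = 0.00798). RPA1 differed there by 0.37 ± 0.14 (adjusted p = 0.105, and 0.0112 with the block) and RPA3 by 0.06 ± 0.12 (adjusted p = 0.776).

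Nucleotide supply held the second largest rise of all members, that of thymidine kinase. TK1, which makes thymidine monophosphate from thymidine, read 8.11, 8.29 and 8.46 in Petri controls, 9.38, 9.56 and 9.65 in treated Petri cells, 8.90, 9.37 and 9.33 in microsystem controls and 10.08, 9.87 and 9.97 in treated microsystem cells, with no overlap between any groups compared. It rose 2.36-fold in Petri dishes (1.24 ± 0.13, adjusted p = 0.000112) and 1.71-fold in the microsystem (0.77 ± 0.13, adjusted p = 0.00371), and was 0.91 ± 0.13 higher in untreated microsystem cells (adjusted p = 9.45e-05). TYMS makes the same nucleotide from deoxyuridine monophosphate and read 9.91, 10.08 and 10.13 in Petri controls, 10.36, 10.49 and 10.53 in treated Petri cells, 9.81, 10.34 and 10.15 in microsystem controls and 10.27, 9.92 and 10.23 in treated microsystem cells. Its treated Petri arrays all lay above the Petri controls, while the microsystem groups overlapped, and the differences were 0.41 ± 0.13 and 0.04 ± 0.13 (adjusted p = 0.0624 and 0.867).

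Ribonucleotide reductase is built from the RRM1 and RRM2 products. RRM1 read 8.13, 8.43 and 8.46 in Petri controls, 8.92, 9.36 and 9.26 in treated Petri cells, 8.08, 8.56 and 8.76 in microsystem controls and 8.79, 8.80 and 9.14 in treated microsystem cells, and it rose by 0.84 ± 0.17 in Petri dishes (adjusted p = 0.00648). RRM2 read 8.20, 8.55 and 8.65 in Petri controls, 9.01, 9.27 and 9.12 in treated Petri cells, 8.44, 8.95 and 8.99 in microsystem controls and 9.29, 9.05 and 9.43 in treated microsystem cells. It rose by 0.67 ± 0.16 in Petri dishes (adjusted p = 0.0159, and 0.0587, 0.0745 and 0.051 without Petri control 1, Petri treated 2 or Petri treated 3). In the microsystem treated arrays lay above controls for both genes, but the differences of 0.45 ± 0.17 and 0.46 ± 0.16 did not pass (adjusted p = 0.114 and 0.0828). Between untreated cultures the subunit genes differed by 0.13 ± 0.17 and 0.33 ± 0.16 (adjusted p = 0.571 and 0.106).

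Of the 6 fork protection and chromatin assembly genes, 5 rose in Petri dishes and 3 in the microsystem. CLSPN encodes claspin, which links a stalled fork to the checkpoint kinase, and read 5.77, 6.21 and 5.78 in Petri controls, 6.93, 7.00 and 6.93 in treated Petri cells, 6.90, 7.35 and 7.69 in microsystem controls and 7.94, 7.75 and 8.07 in treated microsystem cells. It rose by 1.04 ± 0.17 in Petri dishes and 0.61 ± 0.17 in the microsystem (adjusted p = 0.00195 and 0.0413), and was 1.39 ± 0.17 higher in untreated microsystem cells (adjusted p = 2.67e-05). No groups compared overlapped for CLSPN. The other CLSPN probe set ran in the same order, with group means of 5.25, 6.21, 6.58 and 7.26 from Petri control to microsystem treated. TIMELESS and TIPIN form 1 complex at the fork. TIMELESS read 7.41, 7.48 and 7.53 in Petri controls, 7.92, 8.33 and 8.23 in treated Petri cells, 7.45, 7.76 and 7.75 in microsystem controls and 8.28, 8.22 and 8.05 in treated microsystem cells. TIPIN read 6.13, 6.26 and 5.93 in Petri controls, 6.50, 6.49 and 6.17 in treated Petri cells, 6.66, 6.83 and 7.10 in microsystem controls and 6.94, 7.04 and 7.08 in treated microsystem cells. Treated TIMELESS arrays lay above controls in both cultures while those of TIPIN overlapped them, and all 6 microsystem arrays lay above the 6 Petri arrays for TIPIN. The partners differed in what passed: TIMELESS rose with treatment in Petri dishes and the microsystem (0.69 ± 0.12 and 0.53 ± 0.12, adjusted p = 0.00223 and 0.0136) and differed by 0.18 ± 0.12 between untreated cultures (adjusted p = 0.217), whereas TIPIN differed by 0.28 ± 0.13 and 0.16 ± 0.13 with treatment (adjusted p = 0.179 and 0.451, the first 0.0415 with the block) and was 0.75 ± 0.13 higher in untreated microsystem cells (adjusted p = 0.0003).

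DTL, the receptor through which CDT1 and PCNA-bound proteins are marked for destruction, read 7.81, 8.09 and 8.01 in Petri controls, 8.84, 9.14 and 9.11 in treated Petri cells, 7.57, 7.89 and 8.22 in microsystem controls and 8.36, 8.38 and 8.72 in treated microsystem cells. It rose by 1.06 ± 0.15 in Petri dishes and 0.60 ± 0.15 in the microsystem (adjusted p = 0.000978 and 0.0297). Treated DTL arrays lay above controls in both cultures, and treated microsystem arrays lay below treated Petri arrays. Between cultures DTL differed by -0.08 ± 0.15 in controls (adjusted p = 0.706) and was lower by 0.54 ± 0.15 in treated microsystem cells (adjusted p = 0.0125, and 0.051 and 0.0506 without microsystem treated 1 or Petri treated 2). CHAF1A and CHAF1B, the large subunits of the chaperone that places histones behind the fork, rose in Petri dishes by 0.66 ± 0.12 and 0.86 ± 0.19 (adjusted p = 0.0034 and 0.0133). The CHAF1B call was lost without Petri control 1, Petri treated 2 or Petri treated 3, at adjusted p of 0.0525, 0.06 and 0.0532. Between untreated cultures CHAF1A was 0.35 ± 0.12 higher in the microsystem (adjusted p = 0.0296, and 0.0516 to 0.113 without microsystem control 2 or 3 or Petri control 1 or 3), and a like loss, at 0.0504 to 0.108, met the culture call of POLD3 without microsystem control 2 or 3 or Petri control 2 or 3. With acetaminophen in the microsystem CHAF1A and CHAF1B differed by 0.38 ± 0.12 and 0.54 ± 0.19 (adjusted p = 0.0653 and 0.101).

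Several microsystem treatment calls given above depended on single arrays. CDC6, MCM10 and CLSPN each lost the call without any of 9 of the 12 arrays, at adjusted p up to 0.115, 0.133 and 0.11. Among these arrays were microsystem controls 1 and 2, all 3 treated microsystem arrays, Petri control 3 and Petri treated 2 and 3, with Petri control 2 for CDC6 and Petri treated 1 for the other two. PCNA lost its call without microsystem control 1, microsystem control 2 or any treated microsystem array (up to 0.0772), DTL without microsystem control 1 or 2 or microsystem treated 2 or 3 (up to 0.0919), and CDT1 without microsystem treated 1 or 2 (0.076 and 0.0584). ORC6 lost it without microsystem treated 2 or 3 (0.0587 and 0.053) and TIMELESS without microsystem treated 2 (0.0569). CDC45, GINS4, POLA2, POLD3, POLE and TK1 passed with every single array left out.

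**Figure D4:**
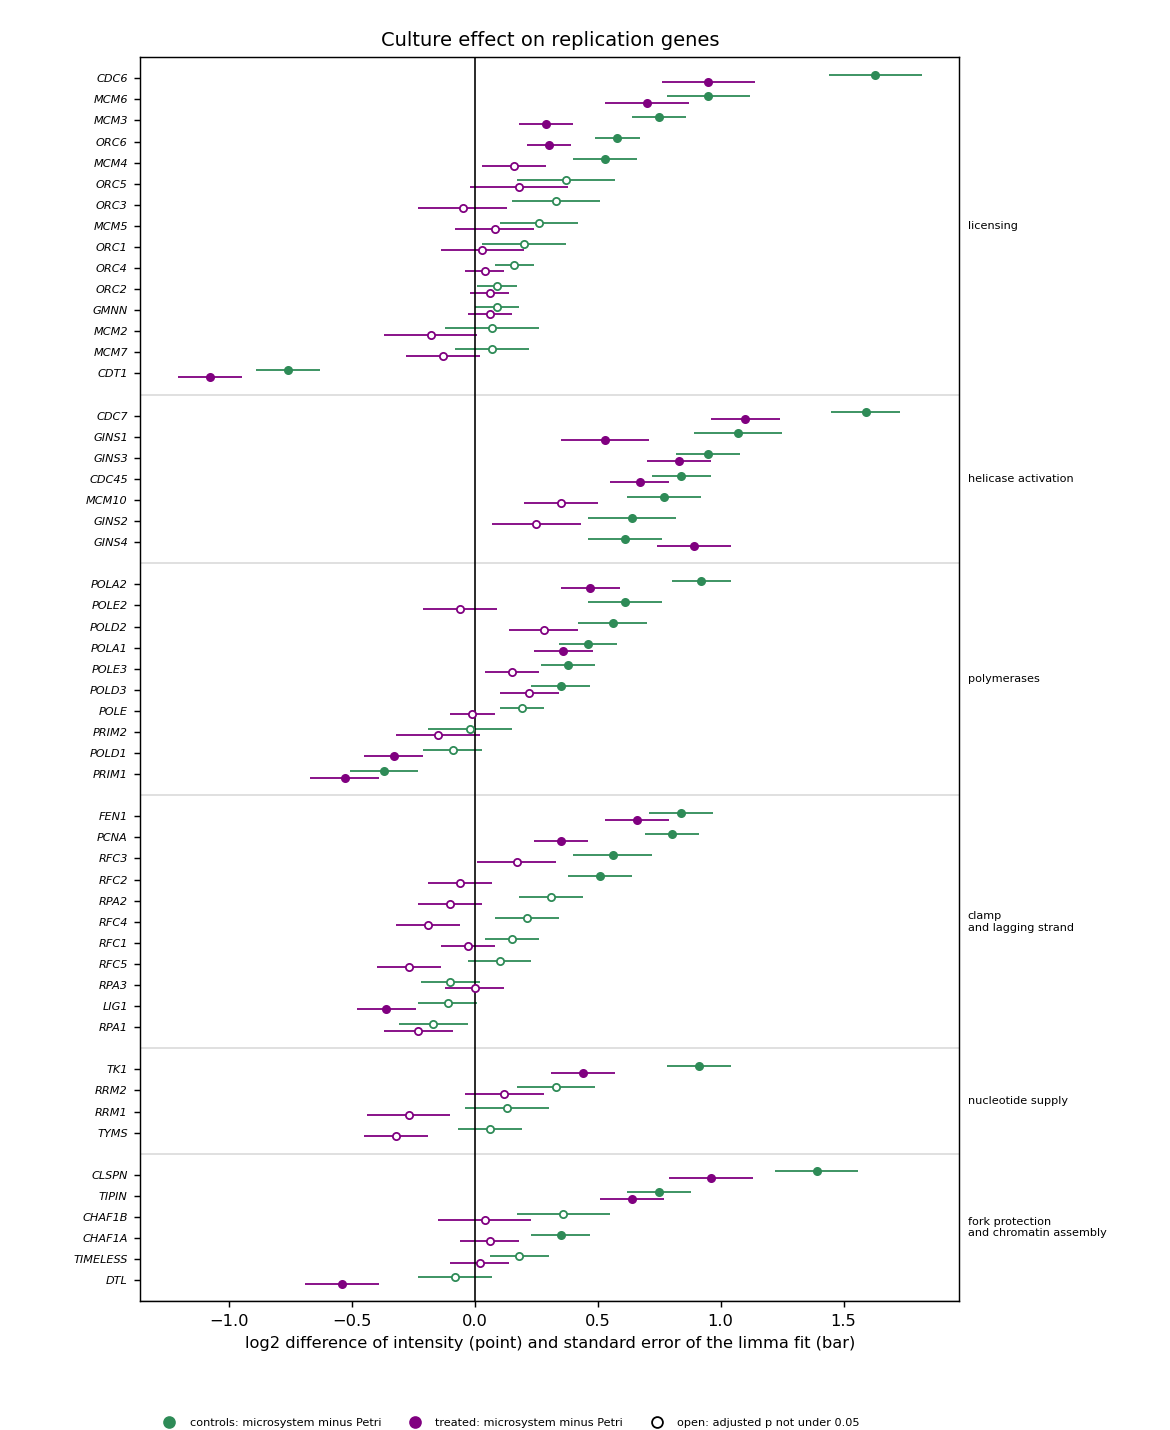
Difference between microsystem and Petri arrays in log2 intensity for each of the 53 tested genes (point, with the standard error of the limma fit as a bar), in control and in treated cells, ordered by step. Filled points passed at adjusted p under 0.05. CDC6, CDC7 and CLSPN lie farthest to the right in controls, and CDT1 lies to the left in both.

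Between treated cultures fewer members differed, with 30.2% higher and 9.43% lower in the microsystem, against 22.6% and 18.9% of all tested genes. Of the 21 that passed, 12 did so with any single array left out. These were CDC6, MCM6, CDC7, CDC45, GINS3, GINS4, POLA2, FEN1, CLSPN and TIPIN, which were higher in the microsystem, and CDT1 and PRIM1, which were lower. Lower in the microsystem were also POLD1 (-0.33 ± 0.12, adjusted p = 0.0416), LIG1 and DTL. The calls of MCM3, ORC6, PCNA, POLA1, GINS1 and TK1, all higher in the microsystem, and those of POLD1, LIG1 and DTL were lost without some single treated array (each of the 6 for at least 1 gene) or, for POLD1, without microsystem control 2 or Petri control 2, at adjusted p up to 0.154. CDC7, CDC6 and CLSPN kept the widest gaps among the genes that were higher, at 1.10 ± 0.14, 0.95 ± 0.19 and 0.96 ± 0.17.

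The last comparison asked whether treatment changed these genes by different amounts in the cultures. The effect in the microsystem minus the effect in Petri dishes was below 0 for 51 of 53 genes (96.2%, against 56.3% of all tested genes), with a median of -0.26 (all tested genes, -0.03). None passed with limma, where 4 of all tested genes passed (0.00758% with a positive and 0.0227% with a negative difference). At an unadjusted p under 0.05 there were 10 members, all with a negative difference, and 970 of all tested genes. The largest differences were those of POLE2 (-0.67 ± 0.22, adjusted p = 0.445), CDC6 (-0.67 ± 0.27, adjusted p = 0.609) and RFC2 (-0.57 ± 0.18, adjusted p = 0.445), of which RFC2 had the smallest unadjusted p of all members. The count of 0 held under every alternative fit, and the median lay between -0.40 (without microsystem control 1) and -0.17 (without microsystem control 3). The p-values that miss the threshold do not show that the effects were alike.

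Other genes of the pathway were counted in the same way. Of 26 other replication genes tested, 14 rose in Petri dishes (53.8%, against 8.38% of all tested genes) and 6 in the microsystem (23.1%, against 6.39%), and 0 fell in either, with median differences of 0.36 and 0.19. Among those that passed, the 3 largest differences in Petri dishes or in the microsystem were held by the histone chaperone gene ASF1B (1.11 ± 0.20 and 0.91 ± 0.20), the clamp unloader gene ATAD5 (1.03 ± 0.12 and 0.41 ± 0.12), the polymerase alpha adaptor gene WDHD1, which rose in Petri dishes (1.02 ± 0.20) and did not pass in the microsystem (0.63 ± 0.20, adjusted p = 0.0605), the firing factor gene TICRR (0.81 ± 0.12 and 0.96 ± 0.12) and the helicase gene MCM8 (0.91 ± 0.10 and 0.46 ± 0.10). Of 28 other nucleotide genes tested, 4 rose and 1 fell in Petri dishes (14.3% and 3.57%, against 8.38% and 1.98% of all tested genes). In the microsystem 2 rose and 2 fell (7.14% each, against 6.39% and 2.67%), with medians of 0.09 and -0.12, and the share that rose there was near the background. The p53-induced reductase subunit gene RRM2B rose in both (0.86 ± 0.11 and 0.51 ± 0.11, adjusted p = 0.000343 and 0.0123), and so did the nucleoside transporter gene SLC29A1 (0.66 ± 0.08 and 0.53 ± 0.08). NT5E, which dephosphorylates extracellular AMP, fell in both (by 0.62 ± 0.17 and 0.63 ± 0.17), and the serine hydroxymethyltransferase gene SHMT2 fell in the microsystem (by 0.49 ± 0.10, adjusted p = 0.00773). Between untreated cultures 12 of the 26 and 12 of the 28 were higher in the microsystem (46.2% and 42.9%, against 26.5% of all tested genes), and 0 and 1 were lower. The histone chaperone gene ASF1A (1.68 ± 0.14), the CTP synthase gene CTPS1 (1.40 ± 0.09) and the dNTP hydrolase gene SAMHD1 (1.34 ± 0.12) led them. Among the proliferation markers between untreated cultures 3 of 12 were higher and 1 lower (25.0% and 8.33%, against 26.5% and 18.3% of all tested genes), shares no larger than the background. The lower one was the mitotic kinase gene CDK1 (by 0.70 ± 0.16, adjusted p = 0.00261), and MKI67 differed by 0.11 ± 0.11 (adjusted p = 0.461).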

How the data were processed

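The authors deposited 1 log2 intensity for each probe set and array. Per the submitters' processing notes, RMA and Affymetrix Expression Console were used, with no version stated. Of 32321 probe sets, 19158 had 1 symbol in the array's annotation, 1388 several and 11775 none here, and symbols were updated through RefSeq gene identifiers. The probe set with the highest mean stood for a gene, and genes above the 40th percentile of their array on at least 3 arrays were tested. The 4 group means were fitted over 13199 genes and 12 arrays together in limma 3.58.1 (R 4.3.3), two-sided, with Benjamini-Hochberg adjustment over all genes tested and a threshold of 0.05. Values after ± are standard errors of this fit. It was tested on simulated data. Members, lists and naming rule (values on every array for 11 fixed genes and the 2 smallest p-values per step and comparison, and up to 3 genes of each other list) were chosen with earlier results of these data known. Same-numbered arrays deviated together in Petri dishes (r of 0.48, 0.19 and 0.31 across genes). In the microsystem 1 of the 3 pairs was under the bound of 0.1 (0.11, 0.07 and 0.60). Block values are therefore quoted gene by gene for Petri dishes only, and as a range for the microsystem. The bound was applied to r across all tested genes. Across the members alone r in Petri dishes was 0.61, 0.08 and 0.51, with the pair numbered 2 under the bound. Calls that passed only with the block therefore rest on a pairing that was weak for that pair. An exact permutation test of 3 arrays against 3 cannot go below p = 0.1. The number of arrays limits the precision. Promoter windows are from RefSeq (GRCh38.p14), and figures were drawn with matplotlib 3.10.9 under Python 3.11.15.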

Additional observations from a re-analysis of the deposited data

How the results depend on the processing

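Counts of members that passed stayed within 1.5 times the reported ones under every alternative for treatment in Petri dishes, for both culture comparisons and for the difference between the treatment effects. Tried were blocks by replicate number (over all arrays or by culture), fits to the compared groups alone, quantile or median scaling, a dimness filter at the 60th percentile or none, averaged probe sets, array weights and each array left out. Leaving out both microsystem arrays numbered 3 was chosen after seeing the data. With single arrays left out, 23 to 39 members passed in Petri dishes, 24 to 35 between untreated cultures, 14 to 25 between treated cultures and 0 for the difference. For treatment in the microsystem 14 passed, against 6 to 21 with single arrays left out, 7 with only the arrays compared and 26 with the replicate block within each culture. Over all tested genes the number that rose there was 843, against 388 to 893, 375 and 1383 in the same fits. With the block over all arrays 42 passed in Petri dishes, 21 in the microsystem, 31 in controls and 25 in treated cells, and with array weights 46, 14, 29 and 26. Of all tested genes, 1335, 1071, 3700 and 3161 passed as higher with the block over all arrays. The same numbers were 2424, 973, 3956 and 3427 with array weights, and 1106, 843, 3504 and 2977 in the reported fit. Same-numbered arrays of the 2 cultures did not deviate together (r of 0.18, -0.03 and 0.13 in controls), so a block across cultures pairs arrays that share only a number. No passing member changed sign under any alternative. Of the calls, 23 of 32 in Petri dishes, 6 of 14 in the microsystem, 24 of 28 in controls and 12 of 21 in treated cells held with any single array left out. The causes were not tested.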

Other observations

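The arrays of a group did not spread evenly over these genes. In Petri dishes the arrays numbered 1 were the lowest of their group for 36 (control) and 40 (treated) of 53 genes. In the microsystem, control 1 was the lowest for 50 and treated 3 the highest for 41. How often each array was lowest or highest over all tested genes was not counted. The median deviation of the 53 genes from their 12-array means was -0.36 on microsystem control 1, against 0.05 and 0.21 on the other microsystem controls, and the same median over all tested genes was -0.01, 0.03 and 0.02. The 12 proliferation markers averaged 7.85 to 8.54 on microsystem control arrays, 8.15 to 8.24 on Petri control, 8.63 to 8.77 on Petri treated and 8.58 to 8.84 on microsystem treated arrays.

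Between untreated cultures the cyclin E genes CCNE1 and CCNE2 and the phosphatase gene CDC25A, which act at the entry to S phase, were 0.54 ± 0.12, 0.63 ± 0.18 and 0.55 ± 0.13 higher in the microsystem (adjusted p = 0.00275, 0.0113 and 0.00369). CCNE2 was dim in Petri controls, at 4.99, 4.88 and 4.57, and microsystem control 1 overlapped them at 4.96. CDK2, the kinase partner of cyclin E, differed by 0.19 ± 0.13 (adjusted p = 0.286). Over the 12 proliferation markers the share higher was 25.0%, against 26.5% of all tested genes. Of the mitotic genes, CDK1 was lower in the microsystem by 0.70 ± 0.16 (adjusted p = 0.00261). CCNB1 differed by 0.12 ± 0.16 and BUB1, AURKB and PLK1 by -0.22 ± 0.13, -0.27 ± 0.14 and -0.09 ± 0.17 (adjusted p = 0.552, 0.188, 0.134 and 0.687). The markers CCNA2 and TOP2A differed by -0.43 ± 0.21 and -0.23 ± 0.15 (adjusted p = 0.113 and 0.235). Of the histone chaperones, ASF1A was 1.68 ± 0.14 higher in untreated microsystem cells and ASF1B differed by 0.35 ± 0.20 (adjusted p = 1.57e-06 and 0.182), while with acetaminophen in Petri dishes ASF1B rose by 1.11 ± 0.20 and ASF1A differed by -0.21 ± 0.14 (adjusted p = 0.00415 and 0.372).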
